A study of Homo sapiens with 8 samples.

Results

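The 42 genes described here encode proteins that detect and repair damaged DNA, or that halt the cell cycle while damage is present. They were taken from a list of gene symbols whose rule uses no measured value, although the list was drawn up with earlier results of these data known, and were found among 20263 genes of the expression table by their Ensembl identifiers. All 42 were expressed highly enough to be among the 11725 genes tested. They comprised 10 genes for sensor kinases and break sensing, 9 for homologous recombination, 4 of the Fanconi anemia pathway, 4 for end joining, 8 for base excision and single-strand break repair, 5 for nucleotide excision repair and 2 for mismatch repair.

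The RNA came from PANC-1, an established human pancreatic cancer cell line, cultured for 24 h with 10 μM eupalinolide B (EB), a compound of the plant Eupatorium lindleyanum, or with its vehicle DMSO. Each group held 4 libraries, which the study's methods call biological replicates, although the same methods also speak of triplicates. All p-values therefore measure the spread between these libraries of 1 cell line. Expression was given as TPM, the abundance of a transcript per unit of its length, scaled to the same total in every library, so the depth of each library was unknown here, and fewer cells of a kind cannot be told apart from less RNA per cell.

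A broken DNA molecule is sensed by the MRE11, RAD50 and NBN complex and by the Ku heterodimer, which recruit the kinases ATM and DNA-PKcs, while ATR responds to single-stranded DNA. Breaks are then rejoined directly by end joining or copied from the sister chromatid by homologous recombination, the route that depends on BRCA1, PALB2 and BRCA2. Damaged, bulky or mismatched bases are removed by excision pathways, and crosslinks between the strands are processed by the Fanconi anemia proteins.

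Some features of the libraries bear on every value below. Mitochondrially encoded transcripts took 17.0 to 39.0% of TPM in the DMSO libraries and 11.6 to 20.3% in the EB libraries (exact two-sided permutation test, p = 0.0571), the highest share being that of DMSO replicate 4. That library held the lowest DMSO value for 30 of the 42 genes, and EB replicate 2 held the highest EB value for 24. The keratins KRT8, KRT18 and KRT19 and the duct factor SOX9 were expressed in the cells, whereas KRT7, EPCAM and CDH1 were below 1 TPM in every library. Of 12 markers of other cell types, 11 were below 1 TPM in every library and 7 were listed at 0 in all, with a summed level of 1.75 to 2.28 TPM in DMSO and 0.928 to 1.17 TPM in EB.

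The promoters of ATM and PMS2, which had lower TPM in EB than in DMSO, are shown as examples of the windows searched for cell cycle related motifs. The sequences are those of RefSeq on GRCh38.p14, cut to the bases before the transcription start that no annotated exon covers. Capitals mark a CCAAT box (CCAAT, or ATTGG when it lies on the other strand) or an E2F-type motif (TTTNNCGC). The ATM stretch, chr11:108222817-108223043 on the plus strand, ran from 250 to 24 bases before the start. The PMS2 stretch, chr7:6009131-6009254 on the minus strand, ran from 205 to 82 bases before it.
ATM: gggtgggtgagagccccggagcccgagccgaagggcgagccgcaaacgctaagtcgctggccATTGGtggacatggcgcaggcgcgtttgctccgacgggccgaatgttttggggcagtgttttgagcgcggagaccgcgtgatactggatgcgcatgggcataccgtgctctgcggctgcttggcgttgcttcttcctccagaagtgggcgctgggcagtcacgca
PMS2: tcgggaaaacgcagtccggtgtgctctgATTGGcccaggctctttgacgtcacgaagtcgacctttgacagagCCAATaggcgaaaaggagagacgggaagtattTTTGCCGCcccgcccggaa

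ATM held 1 CCAAT box on the minus strand, and PMS2 held a CCAAT box on each strand and 1 E2F-type motif on the plus strand, with no overlap between them. A RefSeq window of 250 bases before to 50 bases after the start was given for 37 of the 42 genes, PRKDC, NBN, FANCI, XRCC5 and POLB being those without one. A CCAAT box on either strand was present in 22 of these 37 windows (59.5%), against 34.6% of all 35114 windows and 36.9% of those of tested genes. The E2F-type motif was present in 7 windows (18.9%), against 6.89% of all windows and 11.0% of those of tested genes. The CHR motif TTTGAA was present in 6 windows (16.2%), against 15.2% and 9.16%. Of the windows with an E2F-type motif, none belonged to the 6 genes called higher, 1 to the 7 matched genes called lower and 6 to the 24 matched genes that were not called. These matches are descriptions of letters in a window and were not tested.

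The question of the comparison was which repair genes changed after EB. A gene was called at a Benjamini-Hochberg adjusted p under 0.05 from limma over all tested genes, on log2(TPM + 1), a scale that understates the change of genes with low values. After EB, 6 of the 42 genes were called higher, namely RAD51C, RAD54L, XRCC4, PARP2, OGG1 and ERCC1, and 9 were called lower, namely ATM, PRKDC, NBN, MDC1, BRCA2, PALB2, RAD52, LIG4 and PMS2. The called shares of 14.3% higher and 21.4% lower lay near those of all tested genes, 15.2% higher and 25.1% lower, against which the counts for single pathways of 2 to 10 genes below are also to be read. The median log2 fold change was -0.15 over the 42 genes and -0.11 over all tested genes. In 8 genes (19.0%) every EB library lay above every DMSO library, and in 8 (19.0%) every EB library lay below, against 16.6% and 20.3% of all tested genes. Past the study's own thresholds, a raw p under 0.05 together with a log2 fold change beyond 1.5 in size, there were 2.08% of tested genes and none of the repair genes. The repair genes as a group thus stood close to the background, and the description below turns on which genes moved in each direction.

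Summed TPM of the 42 genes was 2010 ± 250 (SD, n = 4) in DMSO and 2190 ± 120 (SD, n = 4) in EB, with overlapping libraries (exact permutation test, p = 0.4). As a share of all nuclear TPM, the genes made up 0.267% ± 0.00392 in DMSO and 0.257% ± 0.0164 in EB (exact permutation test, p = 0.343). The sum was therefore not distinguishable between the groups at this number of libraries, while single members moved in both directions.

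**Figure D1:**
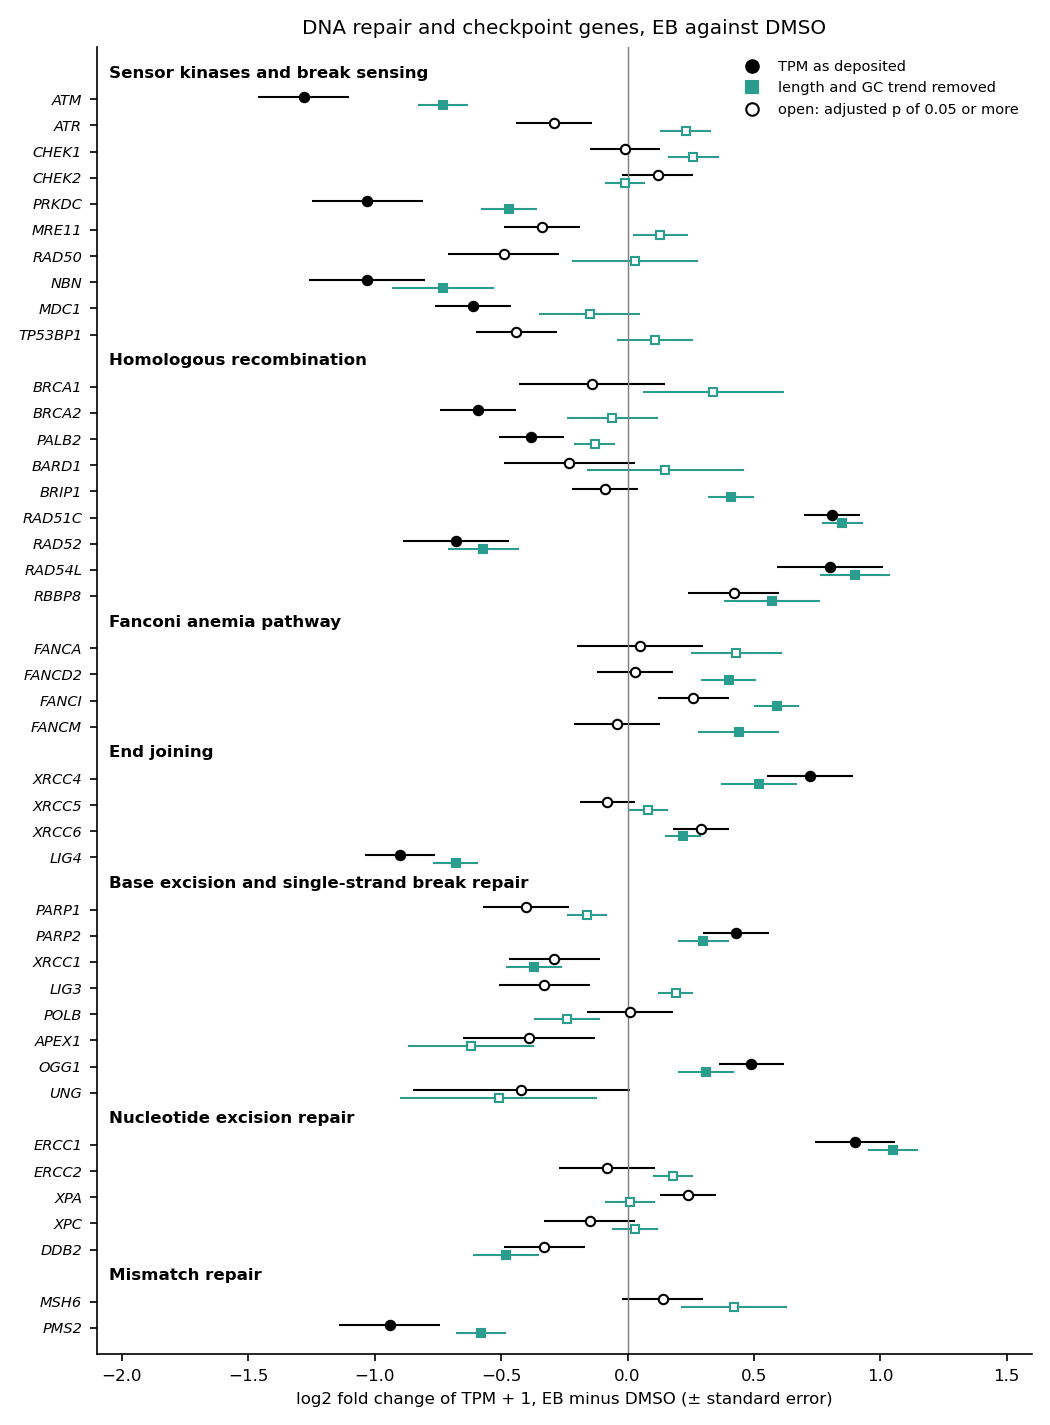
Log2 fold change of TPM + 1 (EB minus DMSO, with its standard error) on the horizontal axis for each of the 42 genes, grouped by pathway. Black circles show the deposited TPM and green squares the values after removal of the trend with length and GC content, filled where the adjusted p was under 0.05. ATM had the lowest value of the deposited TPM (-1.28) and ERCC1 the highest (0.90).

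Transcript length was examined because long transcripts were lower after EB across the whole table. Over 11685 tested nuclear genes with an annotated length, the log2 fold change and the length of the canonical transcript had a Spearman rho of -0.48, and over the 42 repair genes of -0.49. Among the 8 repair genes in the shortest of 4 length classes of equal size, up to 1972 nucleotides, 3 were called higher (37.5%) and none lower, beside 34.3% higher and 9.16% lower of all genes in that class. Among the 16 in the longest class, from 5026 nucleotides, 5 were called lower (31.2%) and none higher, beside 44.8% lower and 3.9% higher of all genes in that class. The repair genes were long, with a median of 4058 nucleotides against 3222 for all tested genes, and the 10 sensing genes had a median of 7563.

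**Figure D2:**
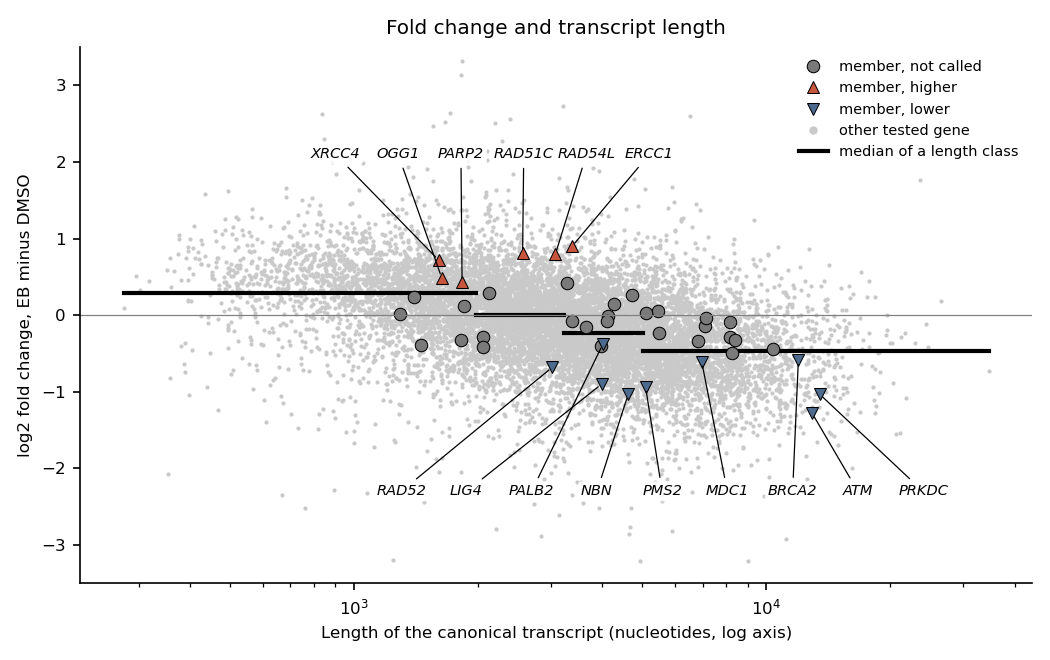
Log2 fold change (EB minus DMSO) against the length of the canonical transcript in nucleotides on a log axis, for all tested nuclear genes in grey and the 42 repair genes as large symbols, with the 15 called genes named. Black bars give the median of all genes in each of 4 length classes of equal size, which went from 0.29 in the shortest to -0.47 in the longest. ATM and PRKDC are among the longest transcripts and lie below that median.

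When each library's trend with the length and GC content of transcripts was taken out, 12 repair genes were called higher (28.6%) and 8 lower (19.0%), against 24.4% higher and 21.8% lower of all tested genes. The median log2 fold change of the repair genes then became 0.12 and that of all genes 0.02, and rho with length over the 42 genes was 0.03. The removal also brought every library to the same mean, so its changes are not those of length and GC alone. Median-ratio scaling and quantile normalization, which use no length, gave medians of -0.06 and -0.01 for the repair genes. For all genes these medians were -0.02 and 0.02. The genes called the same way before and after removal numbered 12: ATM, PRKDC, NBN, RAD52, LIG4 and PMS2 were lower, and RAD51C, RAD54L, XRCC4, PARP2, OGG1 and ERCC1 were higher. MDC1, BRCA2 and PALB2 were called lower with the deposited TPM but not after removal. BRIP1, RBBP8, FANCD2, FANCI, FANCM and XRCC6 were called higher, and XRCC1 and DDB2 lower, after removal but not with the deposited TPM. All of these but BRIP1 and FANCM were also called in some fit with no length or GC trend removed. Quantile normalization was such a fit for FANCD2, FANCI and XRCC1. Between the deposited TPM and the values after removal, the sign of the fold change differed for 15 of the 42 genes. None of these was called with the deposited TPM, and values after removal are given below beside those of the deposited TPM. The cause of the relation to length was not tested.

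The choice of scale and 1 library also set how many genes were called. With mitochondrially encoded genes removed and the rest rescaled, 4 repair genes were called higher (9.52%) and 17 lower (40.5%), against 12.1% higher and 41.4% lower of all genes. Without DMSO replicate 4, 8 were called higher (19.0%) and 15 lower (35.7%), against 15.7% and 36.4% of all genes. The genes gained without that library were XRCC6 and RBBP8 (higher) and ATR, MRE11, TP53BP1, PARP1, XRCC1 and LIG3 (lower). In all 11 alternative limma fits that could test them, and with each of the 8 libraries left out of the deposited TPM in turn, 9 genes kept their call: ATM, PRKDC, NBN, LIG4 and PMS2 were lower, and RAD51C, RAD54L, OGG1 and ERCC1 were higher.

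**Figure D3:**
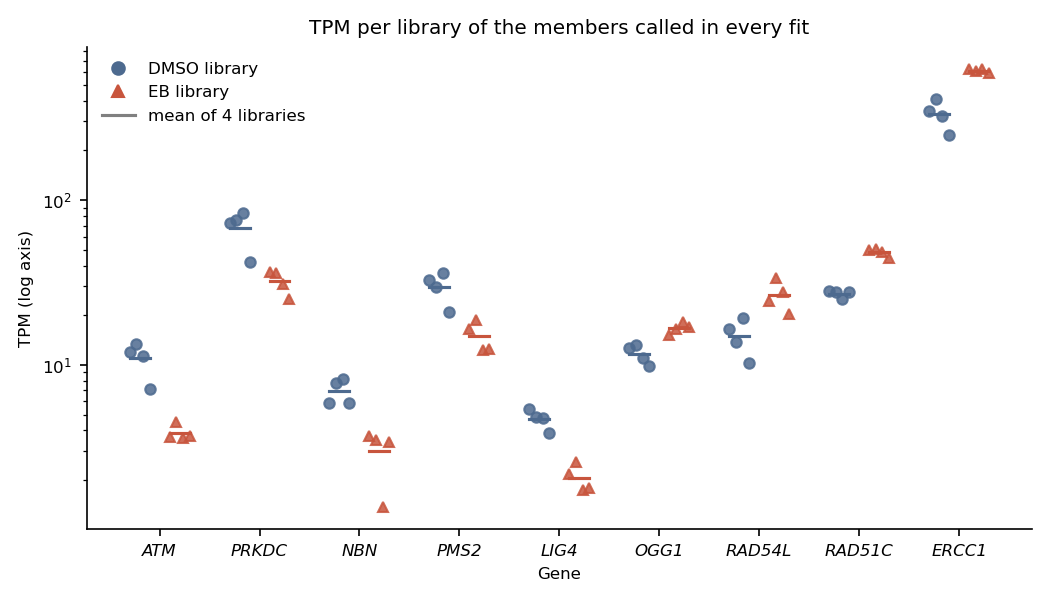
TPM of each library on a log axis for the 9 genes called in every one of these fits, with DMSO libraries as circles, EB libraries as triangles and the mean of 4 libraries as a bar. The EB and DMSO libraries do not overlap for any of the 9, and ATM, PRKDC, NBN, PMS2 and LIG4 are lower in EB and OGG1, RAD54L, RAD51C and ERCC1 higher.

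Among the 10 sensing genes, 4 were called lower and none higher, with a median log2 fold change of -0.46. Of all tested genes 25.1% were called lower. In the longest class, which holds the sensing genes other than NBN, CHEK1 and CHEK2, 44.8% of all genes were called lower, with a median of -0.47. NBN and CHEK1 lay in the next longest class, with 29.4% lower, and CHEK2 in the shortest, with 9.16% lower. The count of 4 is to be read against these shares and was not tested. ATM (ENSG00000149311, chr11:108223044-108369102, GENCODE on hg38), the kinase that signals double-strand breaks, measured 11.9, 13.4, 11.4 and 7.11 TPM in the DMSO libraries and 3.63, 4.48, 3.59 and 3.68 TPM in the EB libraries. Every EB library lay below every DMSO library, the nearest being DMSO replicate 4. The means were 11.0 ± 2.7 and 3.85 ± 0.424 TPM (SD, n = 4), so that the DMSO mean was 2.85 times the EB mean, and the log2 fold change was -1.28 ± 0.18 (SE, limma, adjusted p = 0.000832). After removal of the length and GC trend it was -0.73 ± 0.1 (SE, limma, adjusted p = 0.000723). ATM had the lowest log2 fold change of the 42 genes with the deposited TPM, and ATM and NBN had the lowest after removal.

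PRKDC, the catalytic subunit of DNA-PK that acts in end joining, measured 72.2, 75.2, 83.1 and 42.2 TPM in DMSO and 36.4, 35.9, 31.0 and 25.2 TPM in EB. The groups did not overlap, although the lowest DMSO library, replicate 4, came close to EB replicate 1. Its log2 fold change was -1.03 ± 0.22 (SE, limma, adjusted p = 0.00532), and -0.47 ± 0.11 after removal of the trend (limma, adjusted p = 0.00878). NBN, the regulatory subunit of the break-sensing complex, measured 5.91, 7.81, 8.23 and 5.89 TPM in DMSO and 3.7, 3.49, 1.37 and 3.41 TPM in EB. All EB libraries were lower, and EB replicate 3 stood far below the other EB libraries. The log2 fold change was -1.03 ± 0.23 (SE, limma, adjusted p = 0.00642), and -0.73 ± 0.2 after removal of the trend (limma, adjusted p = 0.0159).

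The other subunits of that complex, the nuclease MRE11 and the ATPase RAD50, were not called. MRE11 averaged 16.7 ± 3.09 TPM in DMSO and 12.9 ± 1.27 in EB, and RAD50 39.7 ± 10.0 and 27.9 ± 6.57 (SD, n = 4). Of the exonic bases of RAD50, 91% are shared on the same strand with a readthrough gene, ENSG00000283782, that was at 1.89 TPM in DMSO and 0.0948 TPM in EB, so the split of reads between them is uncertain. MDC1, which binds phosphorylated histone H2AX beside a break, measured 13.3, 15.0, 15.3 and 16.5 TPM in DMSO and 8.31, 12.6, 8.01 and 9.43 TPM in EB. The groups did not overlap, and the log2 fold change was -0.61 ± 0.15 (SE, limma, adjusted p = 0.0117). With the trend removed, however, it was -0.15 ± 0.2 (limma, adjusted p = 0.566).

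The apical kinase ATR and the mediator TP53BP1, which favors end joining, had log2 fold changes of -0.29 and -0.44 with overlapping libraries (limma, adjusted p = 0.141 and 0.0505). The effector kinases CHEK1 and CHEK2 were close to 0. CHEK1 averaged 33.1 ± 4.24 TPM in DMSO and 32.9 ± 4.13 in EB, with a 95% interval of its log2 fold change from -0.31 to 0.3. CHEK2, which has 7 annotated pseudogenes, averaged 22.0 ± 3.33 and 23.8 ± 1.38 TPM, with an interval from -0.19 to 0.42. With the trend removed, ATR, CHEK1, MRE11 and TP53BP1 had positive values (0.23, 0.26, 0.13 and 0.11) that were not called, and CHEK2 and RAD50 were at -0.01 and 0.03.

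Of the 9 homologous recombination genes, 2 were called higher and 3 lower, beside 15.2% higher and 25.1% lower of all tested genes. RAD51C (ENSG00000108384, chr17:58692573-58735611), a paralog of the strand-exchange recombinase, measured 28.1, 27.6, 25.2 and 27.5 TPM in DMSO and 50.1, 50.3, 48.7 and 44.7 TPM in EB. The libraries within each group lay close together and the groups were well apart. The EB mean was 1.79 times the DMSO mean, with a log2 fold change of 0.81 ± 0.11 (SE, limma, adjusted p = 0.000648), and 0.85 ± 0.08 after removal of the trend (limma, adjusted p = 9.57e-05). RAD54L (chr1:46246461-46278480), a DNA translocase that assists strand invasion, measured 16.4, 13.7, 19.3 and 10.3 TPM in DMSO and 24.4, 33.8, 27.6 and 20.4 TPM in EB. The lowest EB library lay just above the highest DMSO library. The log2 fold change was 0.80 ± 0.21 (SE, limma, adjusted p = 0.0136), and 0.90 ± 0.14 after removal of the trend (limma, adjusted p = 0.000999). Of its exonic bases, 26.2% overlap LRRC41 on the opposite strand, which averaged 45.4 TPM in DMSO and 31.8 in EB, the opposite direction.

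RAD52, which anneals single strands, measured 16.2, 14.4, 18.8 and 8.74 TPM in DMSO and 8.29, 9.33, 9.31 and 6.92 TPM in EB. Its groups overlapped through DMSO replicate 4 alone. The log2 fold change was -0.68 ± 0.21 (SE, limma, adjusted p = 0.0295), and the call was lost with any of 6 libraries left out (limma, adjusted p up to 0.0833). It was -0.57 after removal of the trend (limma, adjusted p = 0.0112). BRCA2, which loads the recombinase onto single-stranded DNA, measured 3.62, 4.42, 2.87 and 3.8 TPM in DMSO and 2.72, 1.71, 1.76 and 2.25 TPM in EB. The highest EB library was just below the lowest DMSO library. The log2 fold change was -0.59 ± 0.15 (SE, limma, adjusted p = 0.0134), but -0.06 ± 0.18 after removal of the trend (limma, adjusted p = 0.819). The transcript of BRCA2 has 11954 nucleotides. Its call was also lost under quantile normalization, which uses no length (-0.28, limma, adjusted p = 0.213).

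PALB2, which links BRCA1 to BRCA2, averaged 11.1 ± 0.968 TPM in DMSO and 8.31 ± 1.05 in EB, with no overlap (limma, adjusted p = 0.0396). Its call was lost with any of 6 libraries left out (limma, adjusted p up to 0.118) and after removal of the trend (limma, adjusted p = 0.187). BRCA1, the ubiquitin ligase at the head of this route, was variable in both groups, at 18.1 ± 4.26 TPM in DMSO and 17.0 ± 7.03 in EB, and its ring partner BARD1 was at 4.47 ± 1.5 and 3.65 ± 1.2. Their log2 fold changes of -0.14 and -0.23 became 0.34 and 0.15 with the trend removed, and none of these was called. The helicase BRIP1 and the end resection factor RBBP8 were not called with the deposited TPM (log2 fold changes of -0.09 and 0.42). With the trend removed they were called higher, at 0.41 (limma, adjusted p = 0.00513) and 0.57 (limma, adjusted p = 0.0346).

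None of the 4 Fanconi anemia genes was called with the deposited TPM. FANCA, the most abundant of them and part of the ubiquitin ligase core complex, measured 55.2, 88.6, 86.8 and 39.3 TPM in DMSO and 55.1, 73.3, 72.2 and 65.7 TPM in EB. All EB libraries lay within the range of the DMSO libraries. FANCD2 and FANCI, the pair that is monoubiquitinated by the core complex, averaged 7.18 ± 0.914 and 19.8 ± 3.06 TPM in DMSO and 7.4 ± 1.24 and 23.6 ± 1.2 in EB. FANCM, the translocase that anchors the core complex to DNA, averaged 2.85 ± 0.688 and 2.73 ± 0.571 TPM. With the trend removed, the median of the 4 went from 0.04 to 0.43, and FANCD2 (0.40, limma, adjusted p = 0.0195), FANCI (0.59, limma, adjusted p = 0.00123) and FANCM (0.44, limma, adjusted p = 0.0462) were called higher. FANCA had a value of 0.43 and was not called (limma, adjusted p = 0.084). When the trend with length alone was removed, FANCM was not called either.

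Of the 4 end joining genes, a pair of direct partners moved in opposite directions. LIG4 (chr13:108207439-108218368), the ligase that seals the break, measured 5.39, 4.85, 4.75 and 3.85 TPM in DMSO and 2.17, 2.58, 1.73 and 1.79 TPM in EB. All EB libraries were lower, and the DMSO mean was 2.28 times the EB mean. The log2 fold change was -0.90 ± 0.14 (SE, limma, adjusted p = 0.00131), and -0.68 ± 0.09 after removal of the trend (limma, adjusted p = 0.000387). XRCC4, the scaffold to which LIG4 binds, measured 17.0, 19.5, 12.8 and 20.5 TPM in DMSO and 25.4, 31.7, 26.8 and 33.1 TPM in EB. All EB libraries were higher, with a log2 fold change of 0.72 ± 0.17 (SE, limma, adjusted p = 0.00792) and 0.52 ± 0.15 after removal of the trend (limma, adjusted p = 0.0214). XRCC4 was not called when mitochondrial genes were removed (limma, adjusted p = 0.052) or when the trend with length alone was removed (limma, adjusted p = 0.0625).

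The Ku subunits were the most abundant of these genes. XRCC6 measured 282, 272, 271 and 247 TPM in DMSO and 334, 332, 339 and 303 TPM in EB. The groups did not overlap, yet the log2 fold change of 0.29 ± 0.11 was not called (SE, limma, adjusted p = 0.0625), the exact permutation p being 0.0286, the smallest that 70 assignments of 8 libraries can give. With the trend removed XRCC6 was called higher, at 0.22 (limma, adjusted p = 0.0315). It was also called with median-ratio scaling (limma, adjusted p = 0.00928), but not under quantile normalization (0.07, limma, adjusted p = 0.461). XRCC6 has 5 annotated pseudogenes. XRCC5, the other subunit, averaged 199 ± 6.76 TPM in DMSO and 188 ± 14.0 in EB, with a 95% interval of the log2 fold change from -0.33 to 0.16 and a value of 0.08 with the trend removed.

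Of the 8 base excision and single-strand break repair genes, 2 were called higher and none lower. OGG1 (chr3:9749944-9788219), the glycosylase that removes oxidized guanine, measured 12.6, 13.2, 11.0 and 9.83 TPM in DMSO and 15.1, 16.4, 18.3 and 16.9 TPM in EB. Each EB library exceeded each DMSO library. The log2 fold change was 0.49 ± 0.13 (SE, limma, adjusted p = 0.0145), and 0.31 ± 0.11 after removal of the trend (limma, adjusted p = 0.0401). PARP2, a polymerase of ADP-ribose at breaks, measured 36.1, 36.8, 27.9 and 31.6 TPM in DMSO and 45.4, 48.2, 42.2 and 42.6 TPM in EB. These groups did not overlap either, with a log2 fold change of 0.43 ± 0.13 (SE, limma, adjusted p = 0.0251) that lost its call with any of 3 libraries left out (limma, adjusted p up to 0.0787). It was 0.30 with the length and GC trend removed (limma, adjusted p = 0.037), but was not called with the length trend alone removed (limma, adjusted p = 0.0712) or with mitochondrial genes removed (0.25, limma, adjusted p = 0.132).

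Its larger relative PARP1, the most abundant gene of the group, measured 195, 190, 203 and 135 TPM in DMSO and 145, 162, 128 and 111 TPM in EB. The groups overlapped through DMSO replicate 4, and the log2 fold change of -0.40 ± 0.17 was not called (SE, limma, adjusted p = 0.0898). Without that library PARP1 was called lower (limma, adjusted p = 0.0115), and after removal of the trend its value was -0.16 (limma, adjusted p = 0.116). With all 8 libraries PARP1 was called lower under quantile normalization, median-ratio scaling, removal of mitochondrial genes and a replicate block (limma, adjusted p from 0.00233 to 0.03). In 7 of the 11 alternative fits it was not called. The scaffold XRCC1 averaged 56.2 ± 11.3 TPM in DMSO and 45.3 ± 6.81 in EB, and was called lower after removal of the trend, at -0.37 (limma, adjusted p = 0.0256). The ligase LIG3 averaged 15.8 ± 3.37 and 12.2 ± 1.82 TPM, a log2 fold change of -0.33 that became 0.19 with the trend removed. POLB, the gap-filling polymerase, was at 22.3 ± 4.32 and 22.4 ± 3.68 TPM, and its value went from 0.01 to -0.24. Neither was called on either scale. The endonuclease APEX1 (141 ± 51.1 and 106 ± 29.4 TPM) and the uracil glycosylase UNG (59.7 ± 31.5 and 40.9 ± 14.2 TPM) varied widely within groups and were not called (limma, adjusted p = 0.255 and 0.456). Their log2 fold changes of -0.39 and -0.42 became -0.62 and -0.51 with the trend removed, not called either (limma, adjusted p = 0.0709 and 0.308).

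ERCC1 (ENSG00000012061, chr19:45407334-45478828), the partner of the ERCC4 nuclease that cuts beside a bulky lesion, was the most abundant of the 42 genes and had their largest rise. It measured 346, 410, 325 and 248 TPM in DMSO and 621, 604, 625 and 591 TPM in EB. The EB libraries lay within a narrow range, far above the highest DMSO library. The means were 332 ± 67.0 and 610 ± 15.4 TPM (SD, n = 4), a ratio of 1.84, with a log2 fold change of 0.90 ± 0.16 (SE, limma, adjusted p = 0.0022) and 1.05 ± 0.1 after removal of the trend (limma, adjusted p = 0.000101). Of its exonic bases, 47.1% overlap POLR1G on the opposite strand. POLR1G was at 19.7 TPM in DMSO and 16.1 in EB, and whether reads were counted by strand is not given in the sources used here.

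The other nucleotide excision genes were not called with the deposited TPM. XPA, which verifies the lesion, had all EB libraries above all DMSO libraries (15.5 ± 0.747 and 18.5 ± 1.42 TPM; exact permutation test, p = 0.0286), but a log2 fold change of 0.24 (limma, adjusted p = 0.119) that was 0.01 after removal of the trend. The damage sensors XPC and DDB2 averaged 20.0 ± 4.14 and 42.1 ± 4.75 TPM in DMSO and 17.7 ± 2.56 and 33.7 ± 6.58 in EB. DDB2 was called lower after removal of the trend, at -0.48 (limma, adjusted p = 0.016). ERCC2, a helicase of the transcription factor TFIIH, averaged 71.9 ± 17.2 and 66.7 ± 7.47 TPM. XPC and ERCC2 went from -0.15 and -0.08 to 0.03 and 0.18 when the trend was removed and were not called.

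Of the 2 mismatch repair genes, PMS2 (chr7:5970925-6009130), an endonuclease subunit that cuts the mismatched strand, measured 32.7, 29.6, 36.0 and 21.0 TPM in DMSO and 16.5, 18.6, 12.3 and 12.5 TPM in EB. All EB libraries were lower, the nearest DMSO library being replicate 4. The DMSO mean was 1.99 times the EB mean, with a log2 fold change of -0.94 ± 0.2 (SE, limma, adjusted p = 0.00504) and -0.58 ± 0.1 after removal of the trend (limma, adjusted p = 0.00178). PMS2 has 15 annotated pseudogenes and related copies that can share its reads, so its level is uncertain. MSH6, a subunit of the mismatch recognition complex, measured 24.1, 26.7, 23.5 and 31.0 TPM in DMSO and 24.6, 29.5, 25.7 and 37.6 TPM in EB. These groups overlapped, and the 95% interval of its log2 fold change ran from -0.22 to 0.5. With the trend removed the value was 0.42 (limma, adjusted p = 0.131).

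Ratios of genes within a library depend little on how the library is scaled, so 14 pairs of genes that work together or are related were compared. They were chosen after the values were seen and are given without a test. The log2 ratio of XRCC4 to LIG4 averaged 1.68 ± 0.38 in DMSO and 3.30 ± 0.24 in EB (SD, n = 4). That of ERCC1 to its nuclease partner ERCC4 averaged 6.51 ± 0.2 and 8.13 ± 0.18, and that of ATM to ATR 0.02 ± 0.16 and -0.97 ± 0.15. In all 3 pairs the EB libraries lay apart from the DMSO libraries. ERCC4 was low, at 2.66 ± 0.781 TPM in DMSO and 1.2 ± 0.283 in EB (SD, n = 4). At such values the added 1 weighs on the ratio, which then does depend on scale. The fall of ERCC4 itself was -0.72 (limma, adjusted p = 0.0119), and -0.25 after removal of the trend, not called (limma, adjusted p = 0.0709). The ratios of PRKDC to XRCC6, of PARP1 to PARP2 and of NBN to MRE11 were lower in every EB library (differences of -1.32, -0.82 and -0.69), and that of XRCC6 to XRCC5 was higher (0.37). For NBN to MRE11 the groups nearly met, the lowest DMSO ratio being -1.4 and the highest EB ratio -1.45. EB replicate 3 stood apart there at -2.72. The other 7 pairs overlapped, among them BRCA1 to BARD1, BRCA2 to PALB2, CHEK1 to CHEK2, RAD50 to MRE11 and FANCI to FANCD2. After removal of the trend the difference was 1.19 for XRCC4 to LIG4, 1.3 for ERCC1 to ERCC4, -0.95 for ATM to ATR and -0.86 for NBN to MRE11. It shrank to -0.69 for PRKDC to XRCC6, to -0.46 for PARP1 to PARP2 and to 0.13 for XRCC6 to XRCC5. For XRCC1 to LIG3, which overlapped with the deposited TPM at a difference of 0.04, it became -0.56.

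**Figure D4:**
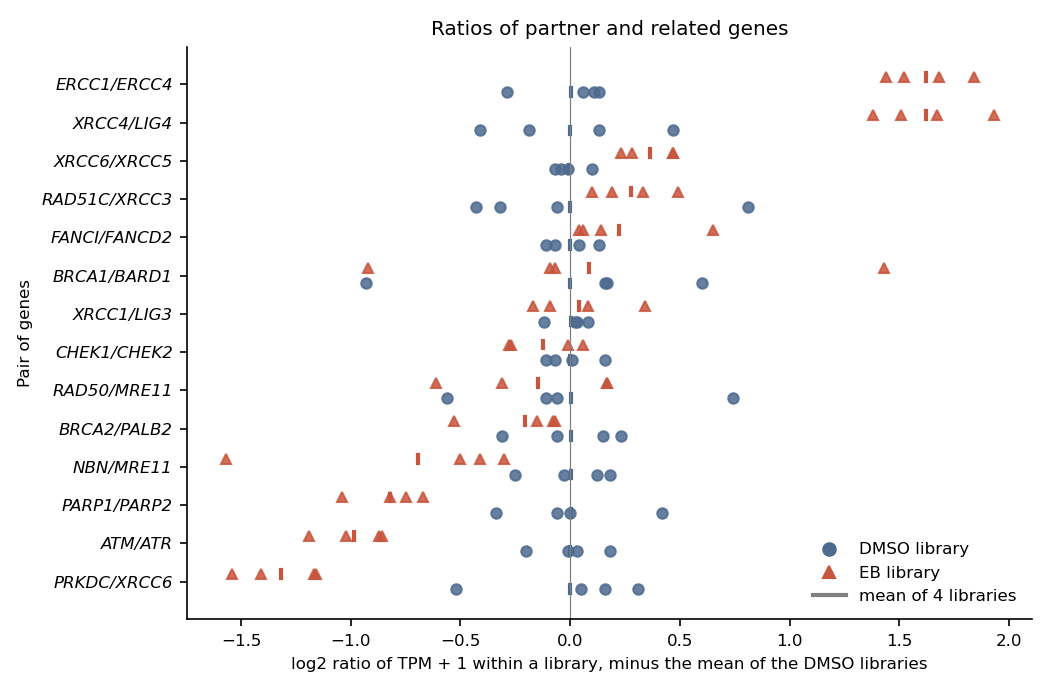
Log2 ratio of TPM + 1 of the first to the second gene of 14 pairs within each library, with the mean of the DMSO libraries set to 0. Circles are DMSO libraries, triangles EB libraries and bars the mean of 4. ERCC1 to ERCC4 and XRCC4 to LIG4 show the largest rises (1.62 each), PRKDC to XRCC6 the largest fall (-1.32), and 7 pairs overlap.

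A wider list of 141 other repair genes, sorted into the same pathways, showed movement in both directions too. Of the 140 that were tested, 30 were called higher and 26 lower, with a median log2 fold change of 0.06, beside the 15.2% higher and 25.1% lower of all genes. After removal of the trend, 41 were called higher and 15 lower, beside 24.4% higher and 21.8% lower of all genes. The largest called rise was in SFR1, an accessory factor of recombination (26.3 ± 2.73 TPM in DMSO and 78.8 ± 7.51 in EB, log2 fold change 1.55, limma, adjusted p = 6.44e-05). REV3L, the catalytic subunit of a translesion polymerase, had the largest fall (-1.16, limma, adjusted p = 0.00289), followed by ABRAXAS1, a subunit of a BRCA1 complex (-1.15, limma, adjusted p = 0.000968).

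By pathway, the largest called rises among these other genes were TIPIN in sensing (1.07), UBE2T in the Fanconi anemia pathway (0.52), PAXX in end joining (1.08), MGMT among base repair genes (0.78), CCNH in nucleotide excision (0.47) and EXO1 in mismatch repair (0.53). The largest called falls were NUCKS1 in recombination (-0.91), POLQ in end joining (-0.53), NEIL1 in base excision (-1.0) and CUL4B in nucleotide excision (-0.90). UBE2T, CCNH and POLQ lost their call after removal of the trend (limma, adjusted p = 0.248, 0.117 and 0.982). Of the 11 other end joining genes tested, 2 were called higher and 2 lower with the deposited TPM, beside 15.2% and 25.1% of all genes. PAXX, which supports the Ku complex, was among the higher and POLQ among the lower.

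Many repair genes are expressed more in dividing cells, so 24 proliferation genes were counted beside them. Of these, 4 were called higher and 3 lower, with a median log2 fold change of -0.01, beside 15.2% higher and 25.1% lower of all genes. After removal of the trend 9 were called higher and 4 lower, beside 24.4% and 21.8%. E2F1, a factor that drives entry into S phase, and TOP2A, a topoisomerase of dividing cells, moved in opposite directions (1.07 and -0.94). The part of proliferation in the repair genes' values was not tested.

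**Figure D5:**
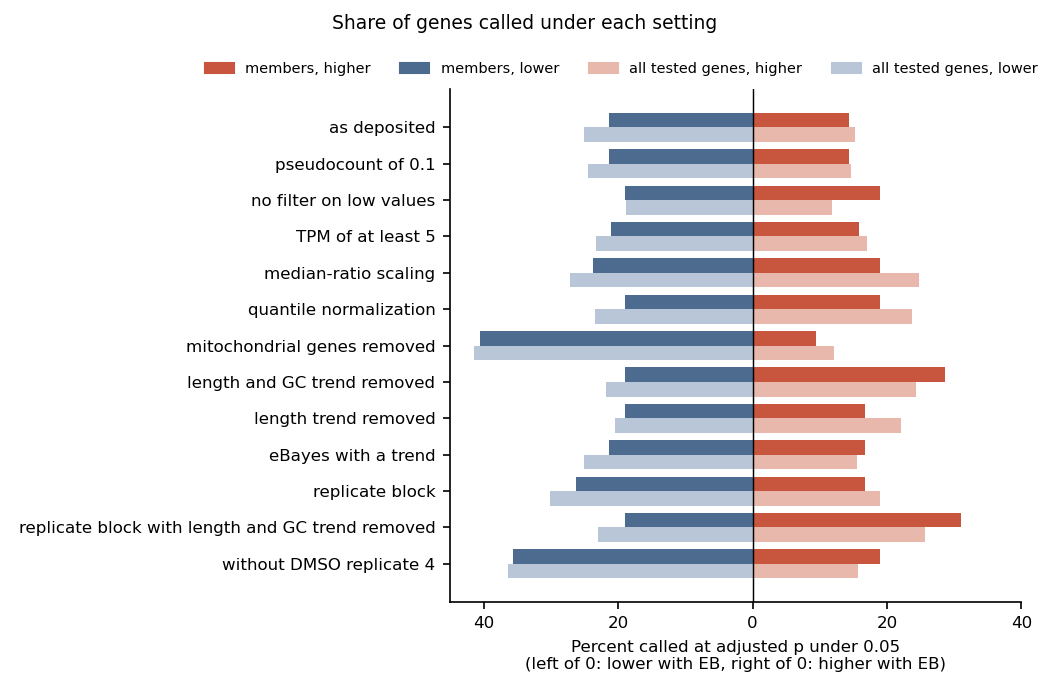
Percent of the repair genes (dark bars) and of all tested genes (light bars) called lower (left of 0) or higher (right of 0) with EB under each setting. The shares with the deposited TPM are 14.3% higher and 21.4% lower for repair genes, against 15.2% and 25.1% for all genes. With mitochondrial genes removed 17 repair genes (40.5%) were called lower, against 41.4% of all genes. With the length and GC trend removed 12 (28.6%) were called higher, against 24.4% of all genes.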

How the data were processed

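RNA sequencing of 8 PANC-1 libraries, 4 with DMSO and 4 with EB, was used as 1 table of TPM that the authors deposited. Per the study's methods, the authors trimmed, mapped, counted and normalized the reads in CLC Genomics Workbench. The same methods also name Trimmomatic, HISAT2, Bowtie2 and StringTie without saying which step each served, so the tool behind the TPM is not certain. Those methods name both a mouse assembly and hg38 as the genome, but all identifiers were human. The columns headed C were taken as DMSO and those headed H as EB, the only other group, since the letter H is not explained. The table holds no counts, so depth and counting error are unknown, and whether reads were counted by strand is not given in the sources used here. No 2 libraries were identical.

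Symbols, positions, transcript lengths and GC content were those of canonical transcripts in GENCODE release 44 (20148 identifiers matched, 115 did not), which may differ from the authors' annotation. Genes reaching 1 TPM in no fewer than 4 libraries were tested on log2(TPM + 1) with limma 3.58.1 in R 4.3.3 (lmFit, eBayes without a trend) and Benjamini-Hochberg adjustment over all tested genes. For single genes, sums and shares, two-sided exact permutation tests used all 70 assignments, with a smallest p of 0.0286. The length and GC trend was removed from each library by natural splines with 5 degrees of freedom, fitted to the deviations from each gene's mean. As the fit has an intercept, it also sets every library to the same mean log2 value over the genes fitted. This also removes any real change that follows length. The scripts were tested on simulated data. Python 3.11.15, numpy 2.4.6, pandas 2.3.3, scipy 1.17.1 and matplotlib 3.10.9 were used.

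The members, pathway lists and tests were chosen with earlier results of these data known. Values per library are given for called members (up to 4 in each pathway, those of largest log2 fold change in size) and for the member of each pathway with the highest mean TPM. Of the other repair genes, the largest called rise and fall in each pathway are named. PALB2 and the remaining members are given by group means or fold changes. Of the promoter windows, 35 of the 37 matched begin at the canonical transcript start. Sequence was to be shown for the 4 genes with the largest change that was called before and after the length and GC removal, those on chromosome 8 aside, but the windows of ERCC1 and LIG4 were covered by annotated exons. Alternatives were quantile normalization, median-ratio scaling, a filter at 5 TPM or none, a pseudocount of 0.1, removal of mitochondrial genes, removal of the length trend with and without GC, an eBayes trend, a replicate block, and each library left out. Leaving out libraries together with the length and GC removal, and the ratios of gene pairs, were added after seeing the data.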

Additional observations from a re-analysis of the deposited data

Results flagged for a closer look

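Within the groups of 4 libraries, 1 library stood apart by Dixon's criterion in 5 of 84 groups (2 groups for each of 42 genes), and chance alone gives about 1 in 20. ATM was at 4.48 TPM in EB replicate 2, with the other EB libraries at 3.59 to 3.68. NBN was at 1.37 TPM in EB replicate 3, with the others at 3.41 to 3.7. PALB2 was at 9.66 TPM in DMSO replicate 4, with the others at 11.5 to 11.7. BARD1 was at 1.85 TPM in EB replicate 2, with the others at 4.15 to 4.31, and APEX1 was at 217 TPM in DMSO replicate 1, with the others at 105 to 122. ATM and NBN were called lower with each of the 8 libraries left out in turn, while PALB2 kept its call without DMSO replicate 4 and lost it without any of 6 other libraries.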

How the results depend on the processing

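With the deposited TPM, 6 repair genes were called higher and 9 lower, with a median log2 fold change of -0.15. With mitochondrial genes removed, 4 were called higher (9.52%) and 17 lower (40.5%, median -0.33), against 12.1% and 41.4% of all genes. With the length and GC trend removed, 12 were called higher (28.6%) and 8 lower (19.0%, median 0.12), against 24.4% and 21.8% of all genes. With the length trend alone removed these counts were 7 and 8 (median 0.12), against 22.1% and 20.5% of all genes. With each library left out in turn, 5 to 8 were called higher and 7 to 15 lower (median -0.23 to -0.09), the 15 lower being those without DMSO replicate 4. Of all genes, 10.6% to 15.7% were then called higher and 16.9% to 36.4% lower, the 36.4% being without DMSO replicate 4. With each library left out and the length and GC trend removed, 6 to 12 were called higher and 7 to 9 lower, with 12 higher without DMSO replicate 4 and 10 without EB replicate 1. The shares of all genes in these fits were 20.1% to 24.4% higher and 18.3% to 21.9% lower. Under the study's fold and p thresholds, 0 were called in either direction. Whether the replicate numbers pair the libraries is not settled by the values. Correlations of deviations between libraries of the same number were 0.183, 0.046, -0.088 and 0.284. Those between libraries of different numbers ran from -0.238 to 0.126. With a replicate block 7 were called higher and 11 lower (19.0% and 30.1% of all genes), and with a replicate block and the length and GC trend removed 13 and 8 (median 0.12, with 25.7% and 23.0% of all genes called). Among the 18 genes given per library, 305 of the single comparisons with an alternative stayed on the same side of the threshold. The call was lost in 22 and gained in 13, and 0 changed the sign of a called value. Values that were not called changed sign in some fits. With mitochondrial genes removed, FANCA went from 0.05 to -0.14 and MSH6 from 0.14 to -0.04. MDC1 and BRCA2 lost their call under quantile normalization too. The causes were not tested. As TPM carry no counts, the precision of the low values of BRCA2, LIG4, NBN and FANCM is unknown.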
